A study of Mus musculus with 10 samples.

Results

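The 10 genes described here sit at the branch where pyruvate is either turned into lactate and exported or carried into mitochondria and oxidized. They were chosen by name and role, as lactate dehydrogenase, pyruvate dehydrogenase, pyruvate dehydrogenase kinase and lactate or pyruvate transporter genes, with earlier TPM results of these libraries already known. Among the known results was the difference of Ldhb between AKO and naïve ESCs, so all values of AKO against naïve ESCs are given as a description, with no test. All 10 were among the 21853 protein-coding genes of the tables, and all 10 were among the 12060 that reached 1 TPM (a length-corrected level scaled to a fixed sum per library) in at least 2 libraries and were tested.

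The data are RNA-seq libraries of 5 mouse embryonic stem cell (ESC) lines, 2 a line and 10 in total. Naïve ESCs were wild-type J1 cells, a male mouse line, grown with serum, LIF and inhibitors of MEK and GSK3β. AKO were J1 cells labelled AMPK KO, in which Prkaa1, a gene for the catalytic subunit of the energy sensor AMPK, was targeted. GKO were J1 cells with an indel in exon 9 of Gys1, the glycogen synthase gene, picked as single clones, and DKO carried both knockouts. AKO and DKO cells were isolated through an integrated RFP reporter. Primed ESCs (PJ1) were labelled wild type, as were naïve ESCs, and the study's methods give them FGF2 and Activin A, whereas their sample labels repeat the naïve medium. The clones behind the libraries were not stated, so a knockout and the clone that carries it cannot be told apart, and in primed ESCs state and medium cannot be told apart. Nothing states that the 2 libraries of a line came from separate cultures, so the p-values measure the spread between libraries, which may be technical.

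Lactate dehydrogenase works as a tetramer of A and B subunits, encoded by Ldha and Ldhb. The A form is typical of cells that make lactate from pyruvate, and the B form of tissues that take lactate up and oxidize it. Lactate crosses the plasma membrane through monocarboxylate transporters, among them those encoded by Slc16a1 and Slc16a3, the second being typical of lactate-exporting cells. Pyruvate enters mitochondria through a carrier built of the products of Mpc1 and Mpc2, and pyruvate dehydrogenase, whose E1α subunit is encoded by Pdha1, turns it into acetyl-CoA. The kinases encoded by Pdk1, Pdk2 and Pdk3 phosphorylate that subunit and switch the complex off. Naïve mouse ESCs are known to combine glycolysis with respiration, and primed cells to rely more on glycolysis.

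The promoters of 4 members are shown because the results on transcripts of the lactate dehydrogenase subunits, a lactate transporter and a pyruvate dehydrogenase subunit turn on these genes. Each is the 250 bases before a transcription start in RefSeq (build GRCm38.p6), written 5′ to 3′ on the strand of the gene. Capitals mark ACGTG and GCGTG, the core letters of hypoxia response elements, and CACGTG, an E-box, on either strand. CACGTG holds ACGTG on both strands and was counted under both names. Ldha has a further annotated start, whose promoter is not shown. The Ldha promoter is at chr7:46845554-46845803 on the plus strand, that of Ldhb at chr6:142507958-142508207 on the minus strand, that of Slc16a3 at chr11:120948817-120949066 on the plus strand and that of Pdha1 at chrX:160138431-160138680 on the minus strand.
Ldha: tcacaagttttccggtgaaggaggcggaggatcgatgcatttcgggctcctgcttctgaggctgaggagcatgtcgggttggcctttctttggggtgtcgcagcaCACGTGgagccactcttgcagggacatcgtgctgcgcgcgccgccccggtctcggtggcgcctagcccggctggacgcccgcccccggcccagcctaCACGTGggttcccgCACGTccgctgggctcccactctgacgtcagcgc
Ldhb: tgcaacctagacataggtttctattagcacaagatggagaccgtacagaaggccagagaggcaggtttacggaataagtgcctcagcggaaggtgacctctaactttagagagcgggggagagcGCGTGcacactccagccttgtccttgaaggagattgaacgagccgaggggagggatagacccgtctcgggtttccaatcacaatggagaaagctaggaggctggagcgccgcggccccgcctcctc
Slc16a3: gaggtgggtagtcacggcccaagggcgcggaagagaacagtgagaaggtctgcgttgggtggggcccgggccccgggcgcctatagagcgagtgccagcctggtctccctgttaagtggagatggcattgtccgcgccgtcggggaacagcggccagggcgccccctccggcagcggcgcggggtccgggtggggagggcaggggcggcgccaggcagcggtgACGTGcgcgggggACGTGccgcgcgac
Pdha1: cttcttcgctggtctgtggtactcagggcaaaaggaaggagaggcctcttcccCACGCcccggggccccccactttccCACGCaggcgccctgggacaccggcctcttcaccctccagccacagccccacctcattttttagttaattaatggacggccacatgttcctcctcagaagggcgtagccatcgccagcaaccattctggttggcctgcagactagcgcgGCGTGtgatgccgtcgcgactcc

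Of the 14 promoters that RefSeq gives the 10 members, 5 held ACGTG, 8 held GCGTG and 3 held CACGTG. The shares among all 32851 mouse promoters of the same length were 16.6%, 28.2% and 6.02%. The Ldha promoter held CACGTG at positions 106 and 203, counted from 1 at its 5′ end, and ACGTG at 217 besides. The Slc16a3 promoter held ACGTG at positions 224 and 237, and the Ldhb promoter held neither ACGTG nor CACGTG but GCGTG at position 125. Pdk2 and Slc16a1 were the other members with CACGTG. The element of the oestrogen-related receptor family, to which the naïve factor Esrrb belongs, was searched as AAGGTCA and was in 4.08% of all promoters and in 0 of the 14. A match is a description of letters and not a bound site, and the absence of one says only that these letters are not in this window.

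The libraries carried the markers of their labelled state. The summed TPM of 9 naïve markers was between 1679 and 1962 in naïve ESCs, AKO, GKO and DKO and between 137 and 139 in primed ESCs. The summed TPM of 8 primed markers was between 51.3 and 81.9 in the former and between 507 and 553 in primed ESCs. Feeder fibroblast markers summed to between 2.33 and 14.8 TPM and trophectoderm markers to between 3.05 and 32.7, the last being highest in GKO. The 6 primitive endoderm markers summed to 7.13 TPM in primed replicate 1, 0.910 in primed replicate 2 and between 0.903 and 2.14 in the other lines. The 4 mesoderm markers summed to 17.8 and 2.71 TPM in the primed libraries, 23.1 and 22.2 in DKO and between 32.2 and 37.8 in naïve ESCs, AKO and GKO. The part of these markers in the results was not tested. In bulk RNA, fewer cells of a type and less RNA per cell cannot be told apart. The targeted Prkaa1 had 15.5 and 16.6 TPM in the naïve libraries, 7.24 and 6.94 in AKO and 2.30 and 2.04 in DKO. For Gys1 the naïve libraries had 11.5 and 10.8 TPM, GKO had 9.70 and 9.98 and DKO had 12.1 and 11.7, so its transcript level did not set DKO apart, and an indel need not lower a transcript. The TPM of a library summed to between 500162 and 578952 over the protein-coding genes, and 10537 to 11113 genes reached 1 TPM. The number of reads cannot be read from TPM.

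Ldha was the most abundant member in every library. Its gene spans bases 46490899 to 46505061 of chromosome 7 (GRCm39, plus strand). It was at 1018 and 1022 TPM in the naïve libraries, 1198 and 1097 in AKO, 668 and 720 in GKO, 733 and 752 in DKO and 1116 and 1189 in primed ESCs. Both Gys1-deficient lines lay below the other 3 without overlap, and AKO overlapped primed ESCs. Ldha fell by 0.56 in GKO on the scale of log2(TPM + 1), which is used for all differences below (SE 0.06, limma adjusted p = 0.000142 over all genes tested), and by 0.46 in DKO (SE 0.06, adjusted p = 0.000523). Under quantile normalization these differences were smaller, at -0.32 and -0.28, and still called (limma adjusted p = 0.00193 and 0.00510). GKO and DKO differed by -0.10 in Ldha (95% interval -0.24 to 0.05, limma adjusted p = 0.243). In primed ESCs it rose by 0.18 (SE 0.06, limma adjusted p = 0.0297), a call lost without either naïve library (adjusted p = 0.105 and 0.0950) and without primed replicate 2 (adjusted p = 0.138). With genes of low values also tested, the primed call of Ldha was lost as well (limma adjusted p = 0.0512), whereas under quantile normalization the difference was 0.41 (adjusted p = 0.000165).

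Ldhb, at bases 142435672 to 142454586 of chromosome 6 (minus strand), moved against Ldha in the Gys1-deficient lines. It was at 21.8 and 18.8 TPM in the naïve libraries, 32.5 and 31.8 in AKO, 111 and 126 in GKO, 33.9 and 29.4 in DKO and 39.5 and 37.0 in primed ESCs. GKO stood alone at the top, primed ESCs came next, AKO and DKO overlapped, and naïve ESCs were lowest. The mean in GKO was 5.83 times that of naïve ESCs, a rise of 2.49 (SE 0.09, limma adjusted p = 3.51e-07). Ldhb also rose in DKO, by 0.62 (SE 0.09, adjusted p = 0.000722), and in primed ESCs, by 0.88 (SE 0.09, adjusted p = 1.65e-05, both from limma). GKO exceeded DKO by 1.87 (SE 0.09, limma adjusted p = 4.08e-06). In AKO the mean was 1.58 times that of naïve ESCs, a difference of 0.64 (SE 0.09) and one of the values known when the genes were chosen. The differences of GKO, DKO and primed ESCs from naïve ESCs share the naïve libraries with that known value. Their p-values for Ldhb are therefore not independent of it.

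The balance of the subunit transcripts followed from these levels, and ratios are given as values with no test. Ldha exceeded Ldhb 46.6- and 54.4-fold in the naïve libraries, 36.8- and 34.5-fold in AKO, 28.3- and 32.1-fold in primed ESCs and 21.6- and 25.6-fold in DKO. In GKO the ratio was 6.0 and 5.73. Ldhb made up 14.6% ± 0.402 of the summed Ldha and Ldhb TPM in GKO and 1.95% ± 0.208 in naïve ESCs (SD, n = 2). In AKO, DKO and primed ESCs it made up 2.73%, 4.09% and 3.22%. These are shares of transcripts and not of protein. The annotation lists 3 processed pseudogenes named after Ldha and 1 named after Ldhb, so the division of reads between the genes and these copies is uncertain.

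**Figure D1:**
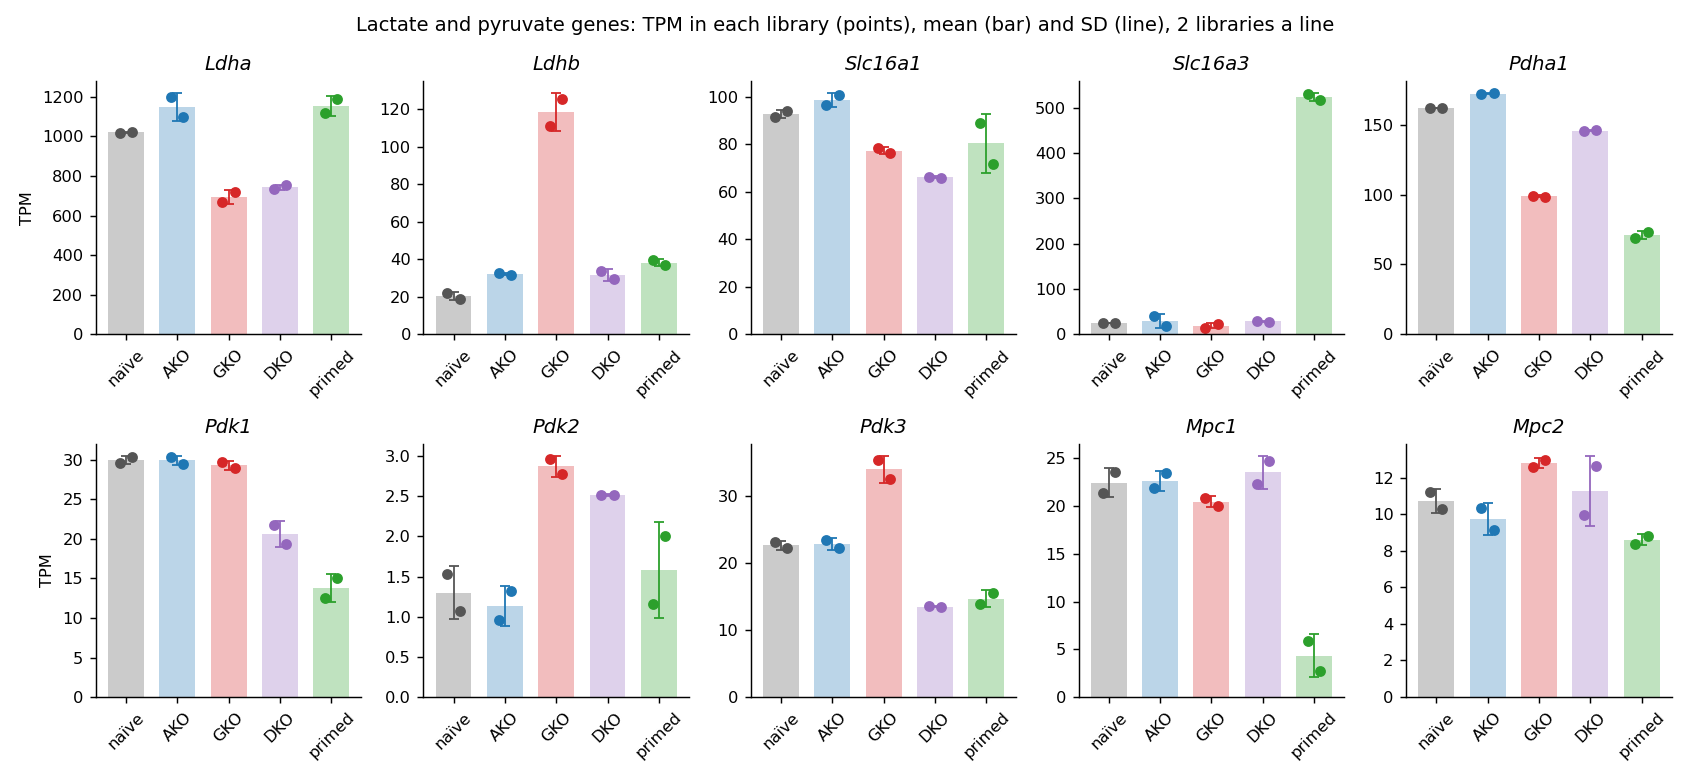
TPM of the 10 members in naïve ESCs, AKO, GKO, DKO and primed ESCs, with 1 panel a gene and its own axis from 0. Points are libraries, bars the mean and lines the SD of 2 libraries; Ldhb stands highest in GKO (111 and 126 TPM) and Slc16a3 in primed ESCs (530.0 and 518 TPM).

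The stretch of chromosome 6 around Ldhb differed between the lines. Among the 20 tested genes on either side of Ldhb, between bases 134897364 and 148733092, the median difference from naïve ESCs was -0.03 in GKO, -0.65 in DKO and -0.92 in primed ESCs. Of these 40 genes 28 were called lower in DKO, and 30 in primed ESCs. In primed ESCs chromosome 6 was low as a whole, with a median of -0.40 beside -0.03 on other chromosomes. That median leaves out Ldhb but includes its 40 neighbours. Between 10 and 20 Mb from Ldhb the primed median was -0.32. Within 5 Mb of Ldhb the median in DKO was -0.93, with 23 of 26 genes called lower, whereas between 10 and 20 Mb away it was 0.17 over 67 genes. Ldhb therefore rose in DKO inside a group of neighbours that fell, and it exceeded their median by 1.27 there, by 2.52 in GKO and by 1.80 in primed ESCs. Between GKO and DKO the neighbours differed by a median of 0.62, and Ldhb exceeded that by 1.25. For Ldha, Pdk1, Pdk2, Slc16a1 and Mpc2 the neighbours had medians between -0.08 and 0.02 in GKO and DKO. The distances were chosen after the values were seen, and the part of the neighbourhood in the differences of Ldhb was not tested. From RNA alone, fewer copies of this stretch and less transcription from it cannot be told apart, which bears on Ldhb in DKO, in primed ESCs and in the comparisons that hold DKO.

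**Figure D2:**
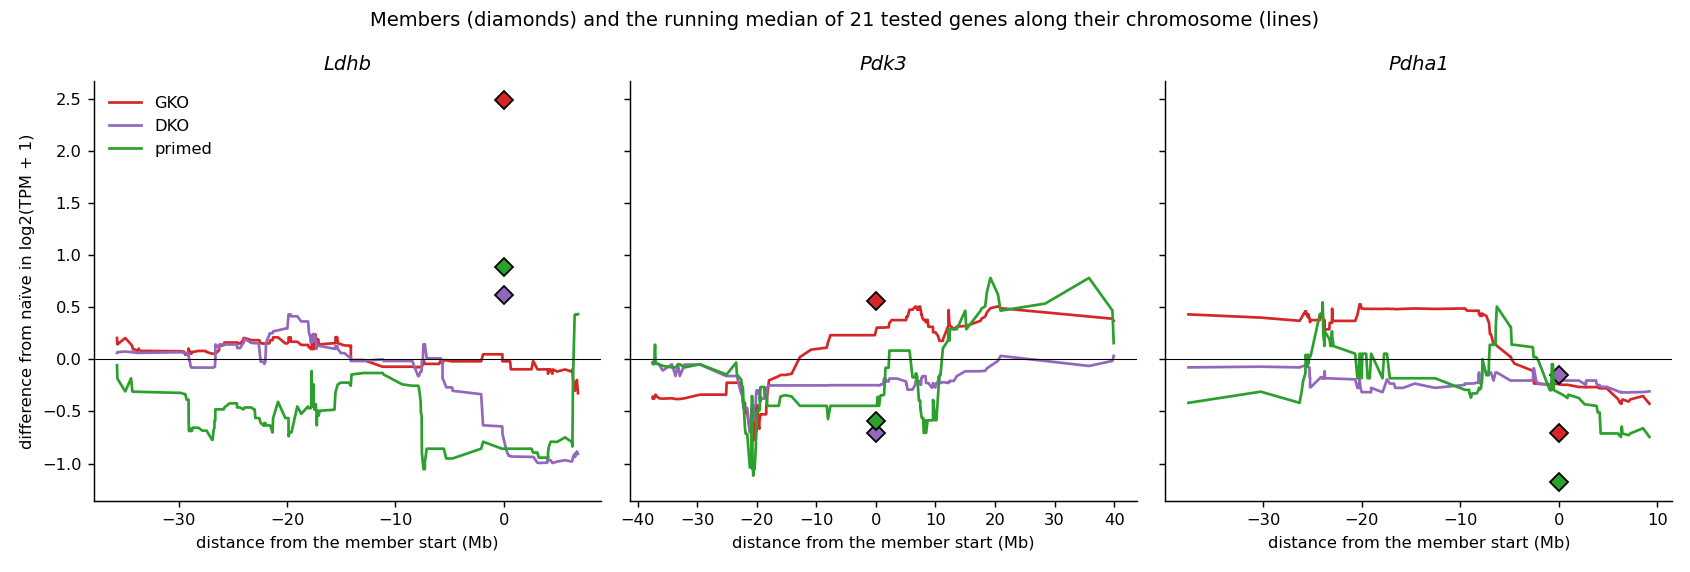
Difference from naïve ESCs in log2(TPM + 1) against the distance in Mb from the start of Ldhb, Pdk3 or Pdha1, up to 40 Mb away on the same chromosome. Lines are running medians of 21 tested genes in GKO, DKO and primed ESCs and diamonds are the members; around Ldhb the DKO line falls well below 0 (median -0.93 within 5 Mb) while the DKO diamond is at 0.62.

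Among the members, Slc16a3 had the largest difference between naïve and primed ESCs. Slc16a3, at bases 120838846 to 120851694 of chromosome 11 (plus strand), reached 530.0 and 518 TPM in the primed libraries, against 24.7 and 24.2 in naïve ESCs. The primed mean was 21.4 times the naïve mean, a rise of 4.37 (SE 0.30, limma adjusted p = 1.04e-06). The 33 tested neighbours of Slc16a3 had a median of 0.27 in primed ESCs. Its knockout libraries were at 39.8 and 18.3 TPM in AKO, 14.9 and 23.8 in GKO and 29.0 and 28.1 in DKO. The spread within AKO and within GKO was wider than the distance between their means and that of naïve ESCs. The difference was -0.36 in GKO (SE 0.30, limma adjusted p = 0.354) and 0.22 in DKO (SE 0.30, adjusted p = 0.598). The neighbours had a median of -0.27 in GKO, with 19 of the 33 called lower, and of -0.16 in DKO, and their part in these values was not tested.

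Slc16a1, at bases 104545811 to 104565780 of chromosome 3 (plus strand), was at 91.7 and 94.1 TPM in the naïve libraries, 96.6 and 101 in AKO, 78.5 and 76.3 in GKO, 66.5 and 66.0 in DKO and 89.1 and 71.8 in primed ESCs. All GKO, DKO and primed libraries lay below the naïve libraries, and DKO was lowest. The gene fell by 0.48 in DKO (SE 0.08, limma adjusted p = 0.00169) and by 0.26 in GKO (SE 0.08, adjusted p = 0.0291). The GKO call was lost without any 1 of the naïve or GKO libraries, with adjusted p between 0.0809 and 0.122, with genes of low values also tested (adjusted p = 0.0573) and under quantile normalization, where the difference was -0.16 (adjusted p = 0.0895). In primed ESCs it fell by 0.21 (SE 0.08, limma adjusted p = 0.0412), but under quantile normalization the difference was 0.02 and its direction turned (adjusted p = 0.820). Without primed replicate 1 the difference was -0.37 (limma adjusted p = 7.73e-05), without primed replicate 2 it was -0.06 (adjusted p = 0.241), and without either naïve library the call was also lost. Slc16a1 exceeded Slc16a3 3.71- and 3.90-fold in naïve ESCs and was at 0.168 and 0.139 of it in primed ESCs.

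Pdha1, at bases 158904237 to 158921426 of chromosome X (minus strand), was among the members with the tightest replicates. It was at 161.9 and 162.0 TPM in the naïve libraries, 172 and 173 in AKO, 99.3 and 98.7 in GKO, 145 and 146 in DKO and 69.2 and 73.3 in primed ESCs. No 2 lines overlapped, in the descending order AKO, naïve, DKO, GKO and primed. Pdha1 fell by 1.17 in primed ESCs (SE 0.04, limma adjusted p = 1.15e-08) and by 0.71 in GKO (SE 0.04, adjusted p = 4.57e-06). GKO lay below DKO by a difference of -0.55 (SE 0.04, limma adjusted p = 2.04e-05). In DKO it fell by 0.15 (SE 0.04, limma adjusted p = 0.0144), a call lost under quantile normalization, where the difference was -0.06, and without any 1 of the naïve or DKO libraries, with adjusted p between 0.0506 and 0.0748. The 40 neighbours had a median of -0.24 in GKO and -0.24 in DKO, so that Pdha1 was 0.47 below them in GKO and 0.09 above them in DKO. In primed ESCs the neighbours had a median of -0.17. The other tested genes of chromosome X had a median of -0.26 in DKO, beside -0.002 on other chromosomes. The part of the neighbours and of the chromosome in the differences of Pdha1 was not tested.

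Pdk1 and Pdk3 supplied most of the kinase transcripts. Pdk1, at bases 71703488 to 71734202 of chromosome 2 (plus strand), was at 29.6 and 30.3 TPM in the naïve libraries, 30.3 and 29.5 in AKO, 29.7 and 28.9 in GKO, 21.7 and 19.4 in DKO and 12.5 and 15.0 in primed ESCs. Naïve ESCs, AKO and GKO overlapped, while DKO and then primed ESCs lay below them. Pdk1 fell by 1.07 in primed ESCs (SE 0.08, limma adjusted p = 2.07e-06) and by 0.52 in DKO (SE 0.08, adjusted p = 0.000974). In GKO the difference was -0.03 (95% interval -0.22 to 0.16, limma adjusted p = 0.783).

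Pdk3, at bases 92789513 to 92876389 of chromosome X (minus strand), was at 23.1 and 22.2 TPM in the naïve libraries, 23.5 and 22.2 in AKO, 35.4 and 32.6 in GKO, 13.6 and 13.4 in DKO and 13.8 and 15.6 in primed ESCs. GKO lay above every other line, DKO lay at the bottom, and AKO overlapped naïve ESCs. The gene rose by 0.56 in GKO (SE 0.07, limma adjusted p = 0.000190), fell by 0.71 in DKO (SE 0.07, adjusted p = 7.56e-05) and fell by 0.59 in primed ESCs (SE 0.07, adjusted p = 3.38e-05). The difference between GKO and DKO was 1.27 (SE 0.07, limma adjusted p = 5.77e-06). Its 40 neighbours had a median of 0.16 in GKO and -0.25 in DKO, and 25 of them were called higher in GKO than in DKO. Pdk3 exceeded the neighbours by 0.41 in GKO and lay 0.46 below them in DKO. In DKO the other tested genes of chromosome X had a median of -0.26, beside -0.002 on other chromosomes. In primed ESCs the neighbours had a median of -0.34 and chromosome X one of -0.28, beside -0.04 on other chromosomes. The part of the neighbours and of the X chromosome was not tested.

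Pdk2, at bases 94914929 to 94932242 of chromosome 11 (minus strand), was the rarest member. It was at 1.53 and 1.06 TPM in the naïve libraries, 0.962 and 1.31 in AKO, 2.96 and 2.78 in GKO, 2.51 and 2.52 in DKO and 1.16 and 2.01 in primed ESCs. Both Gys1-deficient lines lay above the remaining lines, which overlapped one another. Pdk2 rose by 0.76 in GKO (SE 0.16, limma adjusted p = 0.00405) and by 0.62 in DKO (SE 0.16, adjusted p = 0.0124), on a scale that understates changes of genes this low. The DKO call was lost without naïve replicate 2 (limma adjusted p = 0.0947) and without either DKO library.

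The kinase transcripts together, as summed TPM of Pdk1, Pdk2 and Pdk3, came to 53.9 in naïve ESCs, 53.9 in AKO, 66.2 in GKO, 36.6 in DKO and 30.0 in primed ESCs. Per Pdha1 transcript the sum was 0.335 and 0.331 in the naïve libraries, 0.319 and 0.307 in AKO, 0.686 and 0.651 in GKO, 0.260 and 0.242 in DKO and 0.397 and 0.445 in primed ESCs. GKO and DKO thus lay on opposite sides of naïve ESCs in this ratio, which was not tested. Pdk3 made up 51.4% of the sum in GKO and 37.0% in DKO, against 42.1% in naïve ESCs. The sum leaves out Pdk4, the remaining gene of the kinase family, which is no member and was named after its values were seen. Pdk4 was at 0.732 and 0.657 TPM in the naïve libraries, 0.945 and 0.696 in AKO, 2.12 and 2.08 in GKO, 1.28 and 1.21 in DKO and 0.744 and 0.914 in primed ESCs. It differed from naïve ESCs by 0.87 in GKO and 0.40 in DKO. Its effect of Gys1 loss differed by 0.57 between cells with Prkaa1 intact and targeted. Because of how Pdk4 was named, these values are a description with no test. The tested genes next to it on chromosome 6, Pon2 and Slc25a13, differed by 1.09 and -0.17 in GKO. In DKO they differed by 0.23 and -0.80, and the part of this neighbourhood was not tested.

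**Figure D3:**
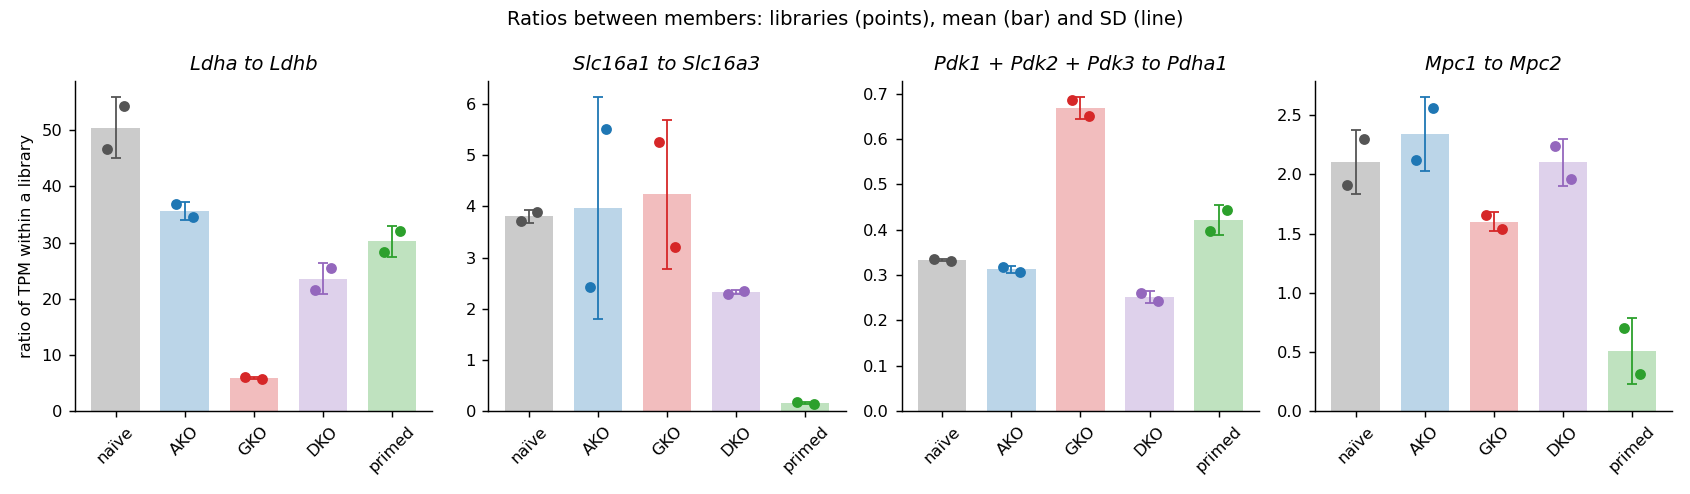
Ratios of TPM within each library for Ldha to Ldhb, Slc16a1 to Slc16a3, the summed kinases to Pdha1, and Mpc1 to Mpc2, by line. Points are libraries, bars the mean and lines the SD of 2 libraries; GKO has the lowest Ldha to Ldhb ratio (6.0 and 5.73) and the highest kinase to Pdha1 ratio (0.686 and 0.651).

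The subunits of the mitochondrial pyruvate carrier parted in primed ESCs. Mpc1, at bases 8501736 to 8516498 of chromosome 17 (plus strand), was at 21.4 and 23.5 TPM in the naïve libraries, 21.9 and 23.4 in AKO, 20.8 and 20.0 in GKO, 22.3 and 24.7 in DKO and 5.91 and 2.75 in primed ESCs. The primed libraries lay far below all others, and also apart from each other. Mpc1 fell by 2.20 in primed ESCs (SE 0.22, limma adjusted p = 1.38e-05). In GKO and DKO the differences were -0.13 (95% interval -0.63 to 0.38) and 0.06 (95% interval -0.44 to 0.57). The annotation lists 1 processed pseudogene named after Mpc1.

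Mpc2, at bases 165287125 to 165308785 of chromosome 1 (plus strand), was at 11.2 and 10.3 TPM in the naïve libraries, 10.3 and 9.13 in AKO, 12.6 and 12.98 in GKO, 9.93 and 12.6 in DKO and 8.38 and 8.81 in primed ESCs. Primed ESCs lay lowest, and the other 4 lines formed a chain of overlapping ranges. The gene fell by 0.29 in primed ESCs (SE 0.11, limma adjusted p = 0.0308), a call lost without naïve replicate 1 or either primed library, with adjusted p between 0.0503 and 0.155. The difference in GKO was 0.24 (95% interval -0.00393 to 0.47, limma adjusted p = 0.0910). Mpc1 exceeded Mpc2 1.91- and 2.29-fold in naïve ESCs and was at 0.705 and 0.312 of it in primed ESCs.

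Seen by comparison, all against the same naïve libraries, 3 members rose in GKO (Ldhb, Pdk2 and Pdk3) and 3 fell (Ldha, Pdha1 and Slc16a1). Of all genes tested 24.7% were called higher in GKO and 27.1% lower, so the counts among the members were close to the background. In DKO 2 members rose (Ldhb and Pdk2), beside 21.7% of all genes, and 5 fell (Ldha, Pdk1, Pdk3, Pdha1 and Slc16a1), beside 24.3%. In primed ESCs 3 rose (Ldha, Ldhb and Slc16a3), beside 37.4%, and 6 fell (Pdk1, Pdk3, Pdha1, Slc16a1, Mpc1 and Mpc2), beside 42.5%. With a log2 difference of at least 1 besides, Slc16a3 was higher in primed ESCs, beside 16.2% of all genes, and Pdk1, Pdha1 and Mpc1 were lower, beside 11.6%.

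AKO stayed near naïve ESCs in these genes. Apart from Ldhb the member differences ran from -0.13 (Mpc2) to 0.17 (Ldha), with standard errors of 0.04 to 0.30. The share of all genes called in AKO was 0.0663% higher and 0.158% lower, which is 27 genes at a limma adjusted p under 0.05 and 1231 at an unadjusted p under 0.05. Of the members 1 was among those higher and 0 among those lower, and nothing is read from this count because the contrast was known when the genes were chosen.

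Between GKO and DKO, which differ in the Prkaa1 knockout as well as in clone, 4 members were called. Ldhb, Pdk1 and Pdk3 were higher in GKO, beside 21.2% of all genes, and Pdha1 was lower, beside 22.4%. Pdk1 differed by 0.49 (SE 0.08, limma adjusted p = 0.00153). The 2 lines with targeted Prkaa1 were unlike in its transcript, at 7.24 and 6.94 TPM in AKO and 2.30 and 2.04 in DKO. The question whether loss of Gys1 had the same effect with Prkaa1 intact and targeted was put as an interaction, GKO minus naïve less DKO minus AKO. It was 1.28 for Pdk3 (SE 0.10, limma adjusted p = 9.68e-05), 0.49 for Pdk1 (SE 0.12, adjusted p = 0.0153, and up to 0.0599 without naïve replicate 1, AKO replicate 1, GKO replicate 1 or DKO replicate 2) and -0.47 for Pdha1 (SE 0.06, adjusted p = 0.000754). For Ldhb it was 2.51 (SE 0.13), given with no p because it holds the AKO value known at the choice. Of all genes 12.8% were called higher in the interaction and 13.1% lower, beside 2 tested members higher and 1 lower. The interaction was 0.07 for Ldha (95% interval -0.14 to 0.28) and 0.04 for Pdk2 (95% interval -0.48 to 0.55). For the neighbours of Ldhb and Pdk3 the median interaction was 0.59 and 0.46.

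**Figure D4:**
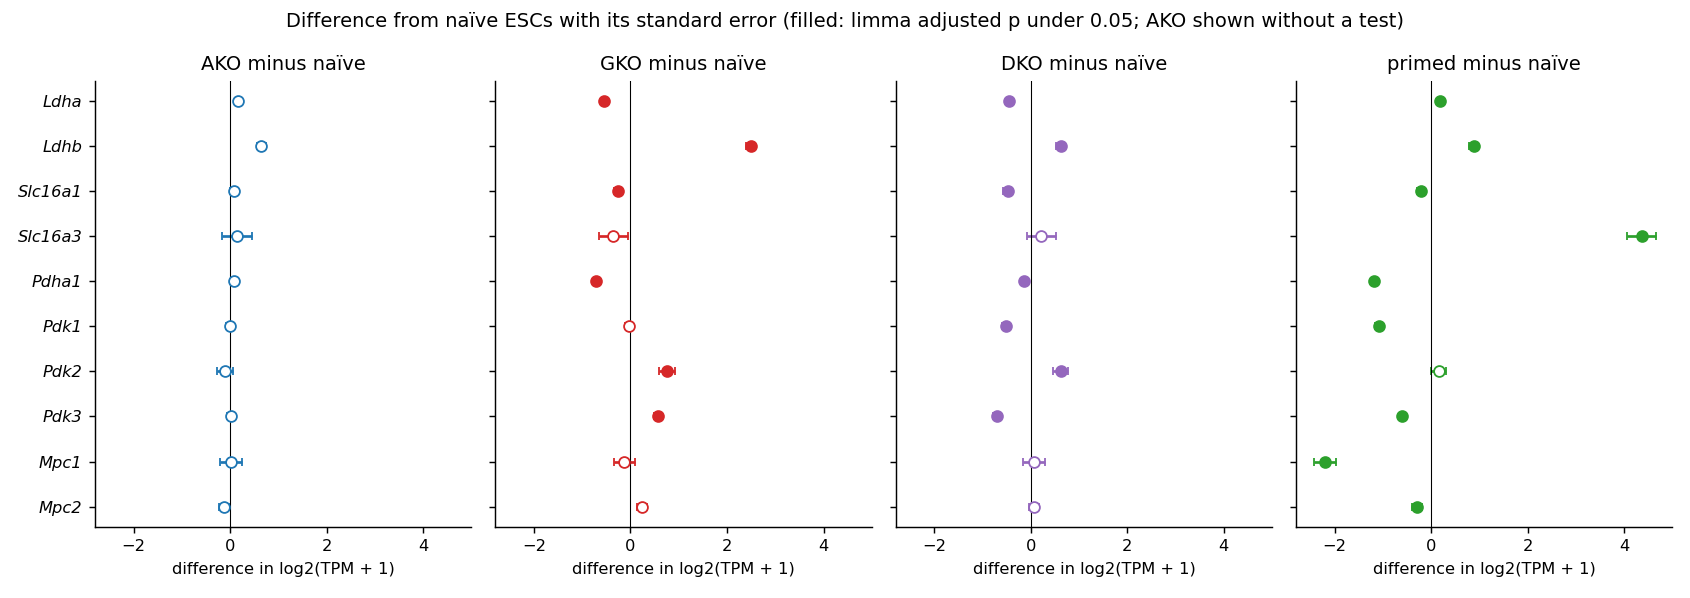
Difference of AKO, GKO, DKO and primed ESCs from naïve ESCs in log2(TPM + 1) for the 10 members, as points with their standard error. Filled points passed the limma test at an adjusted p under 0.05 over 12060 genes and AKO is shown without a test; Ldhb in GKO (2.49) and Slc16a3 in primed ESCs (4.37) lie farthest to the right.

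Other genes of lactate and pyruvate handling were taken from a list of 26, of which 21 were tested. In GKO 2 of the 21 were called higher and 9 lower, beside 24.7% and 27.1% of all genes, with a median of -0.22 beside -0.01 for all genes. In DKO 2 were higher and 9 lower, beside 21.7% and 24.3%, with a median of -0.05. In primed ESCs 8 were higher and 10 lower, beside 37.4% and 42.5%, with a median of 0.05. Pcx, the pyruvate carboxylase that turns pyruvate into oxaloacetate, was at 30.5 and 32.7 TPM in the naïve libraries, 24.5 and 23.0 in AKO, 10.4 and 10.6 in GKO, 19.6 and 20.0 in DKO and 10.5 and 8.41 in primed ESCs. It fell by 1.51 in GKO (SE 0.09, limma adjusted p = 5.14e-06), by 0.64 in DKO (adjusted p = 0.000501) and by 1.64 in primed ESCs (adjusted p = 2.06e-07). Its neighbours on chromosome 19 had medians of -0.39 in GKO, -0.26 in DKO and -0.56 in primed ESCs, and their part was not tested. GKO lay below DKO in Pcx by a difference of -0.86 (limma adjusted p = 0.000120).

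Me1, the cytosolic malic enzyme that yields pyruvate and NADPH, fell by 0.97 in DKO (limma adjusted p = 1.14e-06) and by 0.52 in GKO (adjusted p = 1.92e-05). Pdhb, the E1β partner of Pdha1, rose by 0.45 in GKO (limma adjusted p = 0.000172), while its neighbours on chromosome 14 had a median of 0.49. Emb, an ancillary protein of monocarboxylate transporters, was at 14.2 and 14.0 TPM in the naïve libraries, 20.5 and 21.4 in AKO, 11.92 and 11.96 in GKO, 8.01 and 7.91 in DKO and 58.6 and 44.3 in primed ESCs. It rose by 1.78 in primed ESCs (limma adjusted p = 3.74e-07) and fell by 0.76 in DKO (adjusted p = 0.000529), and GKO exceeded DKO by 0.53 (adjusted p = 0.00383). In AKO it differed by 0.54 and in GKO by -0.22, the former given with no test. Bsg, the usual partner of the proteins from Slc16a1 and Slc16a3, was lower in GKO than in DKO by a difference of -0.45 (limma adjusted p = 0.00146). Pck2, the mitochondrial enzyme that makes phosphoenolpyruvate, rose by 1.03 in primed ESCs (limma adjusted p = 0.000480), where its libraries were at 16.9 and 27.6 TPM. Without any 1 library that difference ran from 0.69 to 1.37, while the 40 neighbours of Pck2 had a median of 0.26 and chromosome 14 one of 0.54, whose part was not tested. The interaction was -1.26 for Pcx (limma adjusted p = 0.000302), 1.07 for Emb (adjusted p = 0.00139) and -0.49 for Pdp2, a pyruvate dehydrogenase phosphatase (adjusted p = 0.0168). The Pdp2 value missed the threshold when either naïve library, replicate 1 of AKO or GKO, or replicate 2 of DKO was left out, with limma adjusted p of up to 0.0659.

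Glycolysis, TCA cycle and hypoxia-inducible genes were counted as lists, to be read beside the shares of all genes called. These shares were 37.4% higher and 42.5% lower in primed ESCs, 24.7% and 27.1% in GKO and 21.7% and 24.3% in DKO. Of 18 glycolysis genes 9 were called higher and 4 lower in primed ESCs, with a median of 0.43 beside -0.05 for all genes, and 6 were higher and 8 lower in GKO, with a median of -0.02. Of 16 TCA cycle genes 4 were higher and 9 lower in primed ESCs, a split that turned to 7 higher and 4 lower under quantile normalization. In GKO 3 of these were higher and 7 lower, and 2 higher and 7 lower in DKO. Of 14 hypoxia-inducible genes 11 were higher and 2 lower in primed ESCs, with a median of 1.39, and 8 were higher and 2 lower in GKO, with a median of 0.45. In DKO the hypoxia-inducible genes numbered 5 higher and 1 lower, with a median of 0.15. Ldha, Pdk1 and Slc16a3 are textbook members of the hypoxia response too, and in primed ESCs they differed by 0.18, -1.07 and 4.37.

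The genes whose pattern over the 8 libraries other than primed was most like that of a member are given with Pearson's r as a description, since the points are pairs of libraries from only 4 lines. For Ldhb they were Nes (r = 0.993) and Tmx4 (0.990), for Ldha Mylip (0.994) and Pebp1 (0.992), and for Pdha1 Ccdc85c (0.997) and Rpl7l1 (0.996). For Pdk3 they were Fzd6 (0.997) and Smo (0.995), for Pdk1 Ipo8 (0.993) and Mrpl3 (0.993), and for Pdk2 Tmem184c (0.992) and Tysnd1 (0.990). For Slc16a1 they were Fkbp9 (0.995) and Mtfr1 (0.993), for Slc16a3 Tmem241 (0.908) and AW146154 (0.892), for Mpc1 Nat9 (0.967) and Hcrtr2 (0.964), and for Mpc2 Ctrl (0.972) and Golga1 (0.966). With the primed libraries included, r was 0.195 for Ldhb and Nes, -0.23 for Pdk3 and Fzd6, 0.987 for Pdha1 and Rpl7l1, and 0.992 for Slc16a3 and Tmem241. Among the members themselves, Ldhb and Pdha1 gave -0.93 and Ldha and Pdk2 gave -0.97 over the same 8 libraries.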

How the data were processed

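The authors trimmed reads with TrimGalore, aligned them with STAR and estimated expression with RSEM 1.3.3, and deposited 1 table of TPM per library for protein-coding genes. The study's methods name GRCm39, while the submitters' processing notes list GRCm38 and GRCh38. The study's methods and its list of software give different versions of STAR, and the library kit differs between the methods and the labels. TPM is scaled to a fixed sum before genes are left out, and depth cannot be recovered from it, so no interval for counting error was derived.

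Groups and replicate numbers came from the sample labels, and 0 columns of per-sample values were left unused. For 26 rows that repeat a symbol, the row with the highest mean kept the symbol. The values were taken as log2(TPM + 1), a scale that understates changes of low genes. Genes that reached 1 TPM in 2 or more of the 10 libraries entered limma 3.58.1 (R 4.3.3), with 1 mean per line, an intensity trend and Benjamini-Hochberg adjustment over all 12060 genes. With 2 libraries against 2, an exact permutation test cannot go below a two-sided p of 0.333, so none was used. The fit was tested on simulated data for GKO against naïve ESCs, where 199 of 200 changed genes and 2 unchanged genes were called among 10730. Each changed gene was given a difference of 1 on the log2(TPM + 1) scale and had a naïve level above 2 on it. The simulation does not cover smaller differences, lower genes or a contrast in which many genes change.

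Gene positions are those of GRCm39, found for 11599 of the tested genes, and neighbours are the 20 tested genes on either side. The members and lists were chosen with earlier results of these data known. Named besides the members were, in each comparison, up to 3 called genes of the list of other lactate and pyruvate genes with the largest change and at least 5 TPM in the higher line, the 2 genes most like each member, and the targeted genes. Not tested for low values were Pdha2, Slc16a7, Slc16a8, Slc16a4 and Me3. Other pseudocounts, filters, scalings, fits and left-out libraries were tried.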

Additional observations from a re-analysis of the deposited data

Results flagged for a closer look

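In 3 members the difference between GKO and naïve ESCs was unlike that between DKO and AKO, by a test of the difference itself. Of all genes, 12.8% were called higher in that test and 13.1% lower. A knockout and its clone cannot be told apart, and the p-values measure the spread between libraries. The log2 change on Gys1 loss with Prkaa1 intact minus that with Prkaa1 targeted was 1.28 in Pdk3, 0.49 in Pdk1 and -0.47 in Pdha1. For Ldhb it was 2.51, which is a description with no test because its AKO value was known at the choice. The neighbours of Pdk3 and Ldhb had medians of 0.46 and 0.59 on this measure, and their part was not tested. In each of these 4 members the GKO and DKO libraries did not overlap. That difference is part of the interaction, so the lack of overlap adds no support. The share of all genes without overlap was not counted. The Pdk1 difference missed the threshold when naïve replicate 1, AKO replicate 1, GKO replicate 1 or DKO replicate 2 was left out, with limma adjusted p of up to 0.0599.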

How the results depend on the processing

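Over 754 member values under the alternatives, 677 kept their direction and their side of the threshold, 43 lost it, 9 passed it and 25 turned. Of 192 values of the other named genes 187 stayed and 5 lost the threshold, and of 608 counts over the 4 lists 516 stayed within 1.5 times. The count of genes called in AKO fell from 27 to 13 with a pseudocount of 0.1, 17 with a mean of at least 5 TPM, 8 with a replicate block and 0 in a limma fit of only the lines compared (2011 at an unadjusted p under 0.05), and to between 1 and 3 without any 1 library. The members called in AKO went from 1 to 0 under a pseudocount of 0.1, no filter, quantile normalization, no intensity trend, the replicate block, only the lines compared and each left-out library (0 to 0). The genes called in the interaction numbered 3116, and 1944 to 2400 without any 1 library. The replicate numbers did not pair the samples (r of deviations from -0.13 to 0.08), and the block changed no other member count, with 6 in GKO, 7 in DKO, 9 in primed ESCs and 4 in the interaction. These 4 include Ldhb, whose interaction is a description with no test. Nothing is read from the member counts in AKO, a contrast known at the choice.

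Quantile normalization turned Pdk1 in GKO (0.0453) and in AKO (0.0103), Pdk2 in primed ESCs (-0.19) and in the interaction (-0.0190), and Slc16a1 in primed ESCs (0.0184). Median-ratio scaling turned Pdk1 in AKO (0.00264). Of these only Slc16a1 was a call. Leaving out 1 library turned uncalled values within these ranges: in AKO Pdk1 -0.0215 to 0.0171, Pdk2 -0.25 to 0.0452, Pdk3 -0.0277 to 0.0472, Mpc1 -0.0527 to 0.0794 and Slc16a3 -0.40 to 0.68; in DKO Mpc1 -0.00939 to 0.14 and Mpc2 -0.10 to 0.22; in primed ESCs Pdk2 -0.0810 to 0.39; in the interaction Pdk2 -0.11 to 0.18, Mpc2 -0.11 to 0.21 and Slc16a3 -0.97 to 0.11. The cause was not tested. The calls of Ldha (adjusted p up to 0.138), Slc16a1 (up to 0.820) and Mpc2 (up to 0.155) in primed ESCs were lost under some alternatives, whereas those of Ldhb, Pdk1, Pdk3, Pdha1, Slc16a3 and Mpc1 there, and of Ldha, Ldhb, Pdk3 and Pdha1 in GKO, held under all that were run.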

Other observations

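Slc16a3 separated libraries of the same line. Replicate 1 exceeded replicate 2 by 1.08 in AKO on the log2(TPM + 1) scale, and 6 of the 12060 tested genes, Slc16a3 included, differed by as much between these libraries. In GKO the difference was -0.64, a size reached by 35 genes, Slc16a3 included, whereas it was 0.03 in naïve ESCs, 0.04 in DKO and 0.03 in primed ESCs. Of 14 hypoxia-inducible genes 11 were higher in replicate 1 of AKO, with a median of 0.17, and 5 in replicate 1 of GKO, with a median of -0.12. In lines where Slc16a3 differed little, 5 of the 14 were higher in replicate 1 of naïve ESCs (median -0.04), 5 in DKO (median -0.08) and 2 in primed ESCs (median -0.30). Over all tested genes the median lay between -0.006 (DKO) and 0.004 (primed ESCs), and the share higher in replicate 1 was not counted. The hypoxia-inducible genes were looked at after the values of Slc16a3 were seen, and these replicate differences were not tested.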
